A study of Drosophila melanogaster with 12 samples.

Results

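Odorant and gustatory receptors are the proteins with which a fly's sensory neurons detect smells and tastes. The genes described here are those whose symbol is Or or Gr followed by digits and a lower-case letter, and Orco, each read from 1 probe set, the one of highest mean on the 12 arrays where a gene had more. The array carried 81 such genes among 10844 genes with a named probe set: 53 odorant receptor genes, Orco included, and 28 gustatory receptor genes. A RefSeq gene table listed 120 genes that fit the same name rule, and those without a named probe set of their own are not analysed here. Of the 81, 14 reached a mean log2 value of 5 or more, the level taken here as above background, and 67 did not.

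The RNA came from adult heads of cn bw flies, which carry the eye colour mutations cinnabar and brown in both groups. Flies kept under a light/dark cycle were collected every 4 hours, during 1 day in constant darkness (6 arrays, circadian times CT4 to CT24) and during the light/dark day just before it (6 arrays, Zeitgeber times ZT4 to ZT24). Each array held RNA of many pooled heads and each time point had 1 array; the labels name no separate cultures, so the p-values reflect only how these arrays scatter about a fitted curve. Because the dark day always came second, the effect of darkness cannot be told apart from that of time elapsed or of batch. Values are the authors' RMA values, taken as log2; a probe set's level depends on its own probes, so levels of different genes are not ranked against each other.

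In the fly, an odorant receptor binds odours in the dendrite of an antennal or palp neuron, and most work as a channel together with the shared co-receptor Orco. Each olfactory neuron usually carries a single tuning receptor or a few, so that a receptor's transcript comes from a small share of the cells of a head. Gustatory receptors sit in taste neurons of the labellum, pharynx and legs and detect sugars or bitter compounds, and a pair of them detects carbon dioxide in the antenna. Some receptors are known mainly from larvae. In whole-head RNA, fewer cells of a type and less RNA per cell cannot be told apart.

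Markers of head tissues were present: all 9 photoreceptor markers measured and all 10 head fat body markers measured had a mean of 5 or more, and so did 8 of 12 neuron markers and 8 of 9 muscle markers. Testis and accessory gland markers reached it for 3 of 9 genes, gut markers for 7 of 9 and ovary markers for 8 of 11. The ovary markers Cp16 and Cp36 had means of 7.58 and 7.36 and the testis marker Mst98Ca 7.31, near the highest receptor, Gr8a, at 7.38. A mean of 5 or more thus does not by itself show that a gene was expressed in head cells. Background was read from 23 control probe sets that match no fly gene, 4 for mouse, 4 for yeast and 15 for bacterial sequences, and their means lay between 2.40 and 4.97 with a median of 2.91. Of these, 0 of 23 reached 5, against 14 of the 81 receptors (17.3%) and 48.4% of all genes.

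Among the receptors above background were 9 odorant and 5 gustatory receptor genes. By the gene lists used here, 4 of 30 receptors of adult antennal sensilla, 2 of 7 of the maxillary palp, 3 of 12 known mainly from larvae, 2 of 4 sugar receptors, 1 of 13 bitter receptors of the labellum and 1 of the 2 carbon dioxide receptors reached 5. Orco itself did not, at a mean of 4.22. Of the 14 genes, 7 overlapped another annotated gene in the RefSeq table on either strand (50%), against 18 of the 67 others (26.9%). Antisense RNA genes were counted too, the share of all genes was not counted, and the contrast was not tested. The deposited values do not say which overlapping transcript, if more than 1, a probe set could see. The bitter receptor Gr8a overlaps CG12121, Gr2a overlaps the neuronal cytoskeleton gene futsch, and Gr43a overlaps Dhx15. Or46a lies inside CG12917, and Or59b and Or59c lie inside CG43795.

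Gr8a, a gene of bitter neurons needed for the response to canavanine, had a mean of 7.38. Its lowest, median and highest values were 7.07, 7.29 and 7.48 in constant darkness, against 7.29, 7.46 and 7.65 in the light/dark day. The ranges overlapped, with CT8 lowest and ZT12 highest. The difference between the days was -0.14 ± 0.09 (SE, n = 6 arrays a day; limma adjusted p = 0.9298). It was -0.22 after a further quantile normalization and -0.07 with arrays centred on the non-fly control probe sets. Gr2a, on the X chromosome as is Gr8a, measured 6.43, 6.57 and 6.64 in constant darkness and 6.48, 6.61 and 6.78 in light/dark, again with overlap.

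Odorant receptors of adult neurons among the 14 were Or7a, Or9a, Or22b and Or59b of the antenna and Or46a and Or59c of the maxillary palp. Or7a, a receptor for green leaf odours, averaged 5.97 ± 0.07 in constant darkness and 6.05 ± 0.06 in light/dark (SD, n = 6 each). Or22b, which shares its neurons with the ester receptor Or22a, averaged 5.67 ± 0.17 in constant darkness and 5.72 ± 0.15 in light/dark. Its neighbour Or22a stood under 5, at a mean of 3.81, and the pair had a Pearson correlation of 0.79 over the 12 arrays, which share their normalization. Or22a and Or22b also correlated at 0.94 and 0.90 with the median course of other genes under 5, so the 0.79 does not show shared expression. Or9a averaged 5.65 ± 0.16 in constant darkness and 5.75 ± 0.18 in light/dark. For these genes limma gave adjusted p-values of 0.9298 or more.

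Or46a, a palp receptor for phenols, had the largest difference of the 14. Its values ran from CT4 to CT24 as 5.89, 5.72, 5.71, 5.71, 5.63 and 5.71, against 5.79, 5.81, 6.005, 6.20, 5.75 and 5.82 from ZT4 to ZT24. It was lower in constant darkness at 5 of 6 clock hours, with the ranges overlapping through CT4. The difference was -0.17 ± 0.08 (SE; limma unadjusted p = 0.0723, adjusted p = 0.9298), and -0.09 with the non-fly centring. A second probe set of Or46a, at a mean of 3.51, gave -0.01 ± 0.09, so the probe sets of this gene disagree on size. Or46a alone among the 81 had more than 1 probe set.

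The neighbouring genes Or59a, Or59b and Or59c all reached 5. Or59b, an antennal receptor for acetate esters, averaged 5.62 ± 0.10 in constant darkness and 5.64 ± 0.04 in light/dark. Or59a, a larval receptor, averaged 5.06 ± 0.07 and Or59c 5.04 ± 0.09 in constant darkness, against 5.11 ± 0.17 and 5.05 ± 0.06 in light/dark. Their levels followed each other little, with Pearson correlations over 12 arrays of 0.28 for Or59a with Or59b, 0.05 for Or59a with Or59c and 0.42 for Or59b with Or59c. The other larval receptors of the group were Or22c, at 6.63 ± 0.14 in constant darkness and 6.64 ± 0.06 in light/dark, and Or74a, at 4.96 ± 0.11 and 5.08 ± 0.13. Or22c was highest in CT8, at 6.88, an array in which neuron markers had a median deviation of -0.49 from their own means and gut markers 0.44; the part of other cells in that value was not tested.

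The remaining taste receptors above background were the sugar receptors Gr5a and Gr43a and the carbon dioxide receptor Gr21a. Gr5a, known for the response to trehalose, averaged 5.64 ± 0.12 in constant darkness and 5.61 ± 0.12 in light/dark. Gr43a, a fructose receptor that also works in the brain, averaged 5.63 ± 0.16 in constant darkness and 5.62 ± 0.18 in light/dark. Gr21a varied most of the 14, over a range of 0.76: it was 5.31, 5.67 and 6.06 (lowest, median, highest) in constant darkness and 5.495, 5.75 and 5.92 in light/dark. The highest value of Gr21a, like that of Or22c, was in CT8, and the part of other cells in it was not tested. Its partner Gr63a, without which it gives no carbon dioxide response, stood under 5, at 2.80 ± 0.09 in constant darkness and 2.77 ± 0.08 in light/dark.

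**Figure D1:**
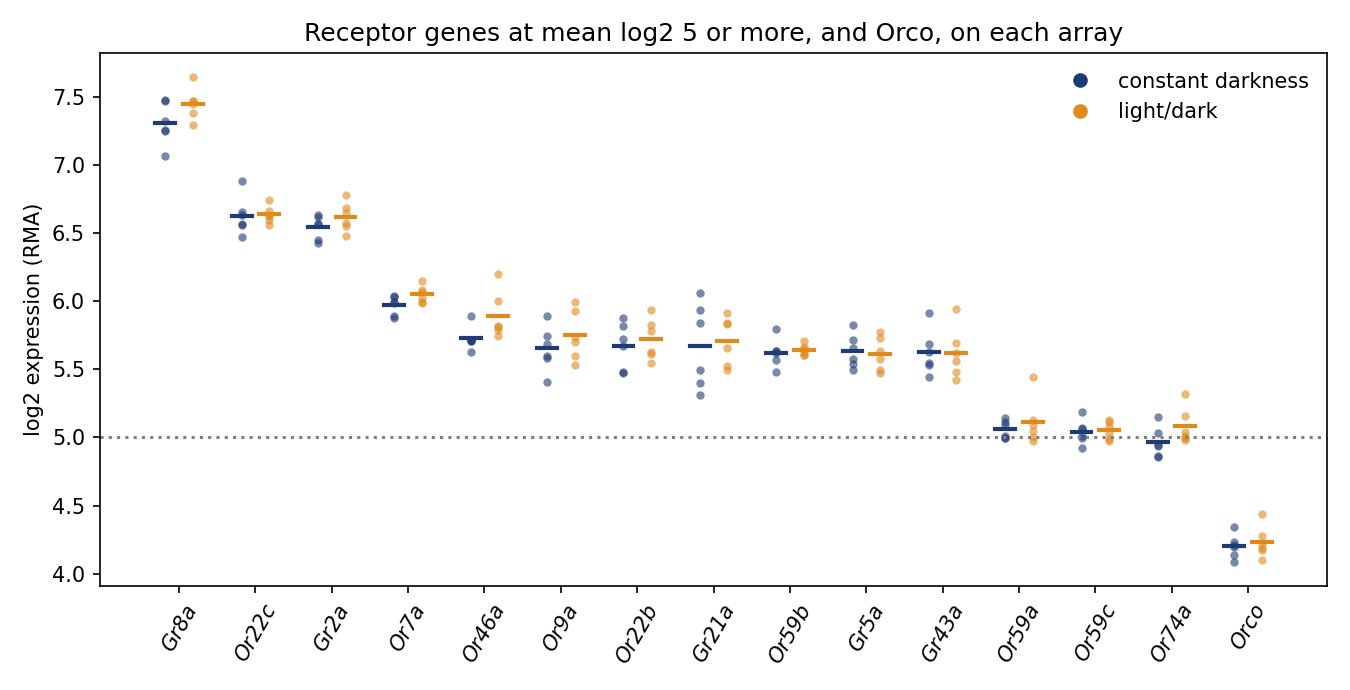
Log2 expression (vertical axis) of the 14 receptor genes at mean log2 5 or more and of Orco on each of the 12 arrays, with constant darkness (blue, 6 arrays) left of light/dark (orange, 6 arrays); points are arrays, bars are means, and the dotted line marks 5. The arrays of both days overlap for every gene drawn, and Orco lies under the line on every array, at most 4.43.

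Just inside the limit of 5 stood Or59a (5.09), Or59c (5.05) and Or74a (5.02), and just outside Gr57a (4.91), the palp receptor Or85d (4.88) and Or47b (4.82), an antennal receptor for fly-derived odours. The highest non-fly control probe set had a mean of 4.97, so the genes just inside the limit are not clearly set apart from background. Orco was at 4.08, 4.20 and 4.34 (lowest, median, highest) in constant darkness and at 4.10, 4.20 and 4.43 in light/dark. Its difference between the days was -0.03 ± 0.07 (SE; limma adjusted p = 0.9565). The genes at 5 or more whose course was most like that of Orco were Tsp2A (Pearson correlation 0.87 over 12 arrays), esn (0.86) and CG13054, CG12480 and CG15650 (0.82 each), the highest of 5239 genes compared. Orco itself stood under 5 and correlated at 0.52 with the median course of other genes under 5. As the top of so many comparisons on 12 arrays, these values do not show shared regulation.

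No receptor's mean level was shown to differ between the days. With limma, 0 of 81 genes passed at an adjusted p of 0.05 (0% of all 10844 genes did), and the smallest adjusted p was 0.9298. At an unadjusted p under 0.05, 9 receptors were lower in constant darkness and 0 higher, against 2.12% and 1.72% of all genes. In 0 of the 81 did the arrays of the days not overlap in either direction (0.148% of all genes had all constant darkness arrays below, 0.0461% above). All 9 had means under 5. The count of 9 changed when single arrays were left out. It was 4 without ZT4 (2.06% of all genes), ZT12 (1.01%) or ZT16 (1.12%), and 2 without ZT24 (1.32%). It was 5 without CT8 (1.61%) or CT16 (1.48%), and 3 without CT12 (1.42%), CT20 (1.23%) or CT24 (1.06%). Without CT4 it was 12, where the share of all genes was also larger, at 6.84%.

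Of these 9, Gr98a had the smallest p. It measured 3.92, 3.37, 3.51, 3.72, 3.58 and 3.52 from CT4 to CT24, against 3.84, 3.72, 4.07, 4.02, 3.77 and 4.02 from ZT4 to ZT24. It was lower in constant darkness at 5 of 6 clock hours, all but hour 4, and the fitted difference was -0.31 ± 0.10 (SE; unadjusted p = 0.0123, limma adjusted p = 0.9298). Or69a, an antennal receptor, differed by -0.27 ± 0.10, with 3.30, 3.45 and 3.67 (lowest, median, highest) in constant darkness and 3.43, 3.71 and 3.94 in light/dark. Gr68a, linked to male courtship, differed by -0.17 ± 0.07, and it too was higher at CT4 than at ZT4.

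Or85d, of the palp, had 4.43, 4.74 and 4.98 in constant darkness against 4.82, 4.99 and 5.37 in light/dark, with its lowest value in CT8 and its highest in ZT24. The remaining genes were Or42a (-0.15 ± 0.06), a palp receptor for fruit esters, Or13a (-0.15 ± 0.06), an antennal receptor for octenol, Or88a (-0.24 ± 0.11), an antennal receptor for fly-derived esters, and the larval receptors Or45b (-0.13 ± 0.06) and Or1a (-0.23 ± 0.10). Or45b and Or1a alone of the 81 were lower in constant darkness at all 6 clock hours, as were 176 of all 10844 genes and 105 of 5524 other genes under 5. At 5 or 6 hours that held for 22 of 81 receptors, against 14% of all genes.

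**Figure D2:**
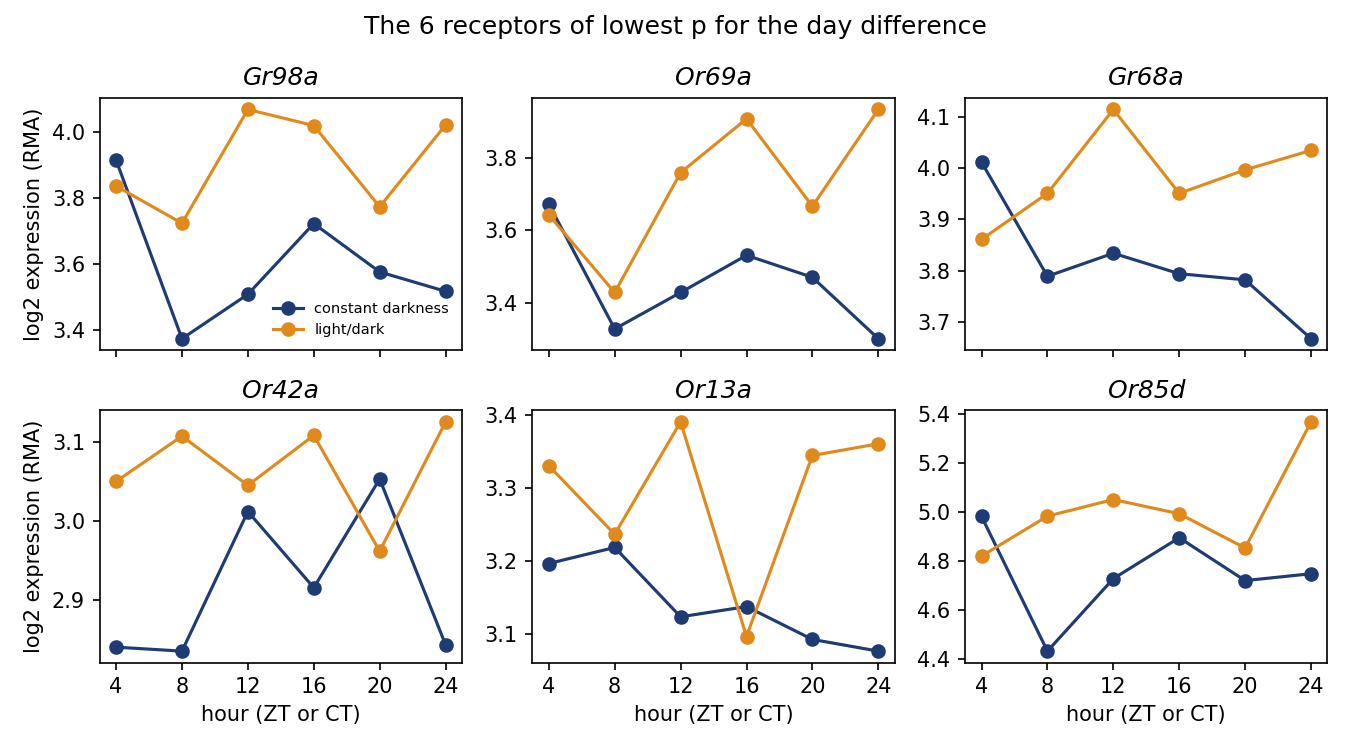
Log2 expression (vertical axes, which differ between panels and do not start at 0) by hour of day for the 6 receptors with the smallest p for the difference between the days, in constant darkness (blue) and light/dark (orange), 1 array per point. Gr98a, Or69a, Gr68a and Or85d were higher at CT4 than at ZT4 and lower in constant darkness at the other 5 hours, and no gene passed after adjustment.

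Among the receptors higher in constant darkness, the smallest p was that of Or33a, at 2.51 ± 0.07 in constant darkness and 2.42 ± 0.12 in light/dark (difference 0.09 ± 0.07, SE). The next were Gr58b (0.05 ± 0.09), the bitter receptor Gr93b (0.03 ± 0.07), Gr63a (0.03 ± 0.06), the geosmin receptor Or56a (0.03 ± 0.08) and the larval receptor Or45a (0.02 ± 0.07). None of these 6 passed in limma, and their means over the 12 arrays were at most 3.16.

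As a family, 71 of 81 receptors lay lower in constant darkness (median difference -0.06), against 54% of all genes (median -0.01). When arrays were centred on the non-fly control probe sets, as described further on, 34 of 81 did (median 0.01). That centring also moved the median of all genes up to 0.065, with 25.9% of other genes under 5 then lower, so its counts below are read against that shift. On the deposited scale, 12 of 14 receptors at 5 or more were lower (median -0.05) and 59 of 67 under 5 (median -0.06); the difference between these medians was not tested. By level, other genes gave 46.7% lower at 5 or more (median 0.01, n = 5239) and 60.4% lower under 5 (median -0.02, n = 5524). Odorant receptors were lower for 49 of 53 and gustatory receptors for 22 of 28, which became 23 of 53 and 11 of 28 with the non-fly centring. Antennal receptors were lower for 28 of 30 (median -0.07), palp receptors for 7 of 7 (-0.07) and bitter receptors for 11 of 13 (-0.05), and with the non-fly centring for 12 of 30, 3 of 7 and 5 of 13 (medians 0.01, 0.01 and 0.02). Larval receptors were lower for 11 of 12 (median -0.11) and remained below 0 with that centring, for 8 of 12 (median -0.04). Of the 4 sugar receptors 2 were lower (median -0.03; 1 of 4 with that centring, median 0.05), Gr64f by -0.11 ± 0.08 and Gr61a by -0.06 ± 0.08. Of the bitter receptors, Gr8a had the smallest p, followed by Gr32a, at -0.15 ± 0.09.

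**Figure D3:**
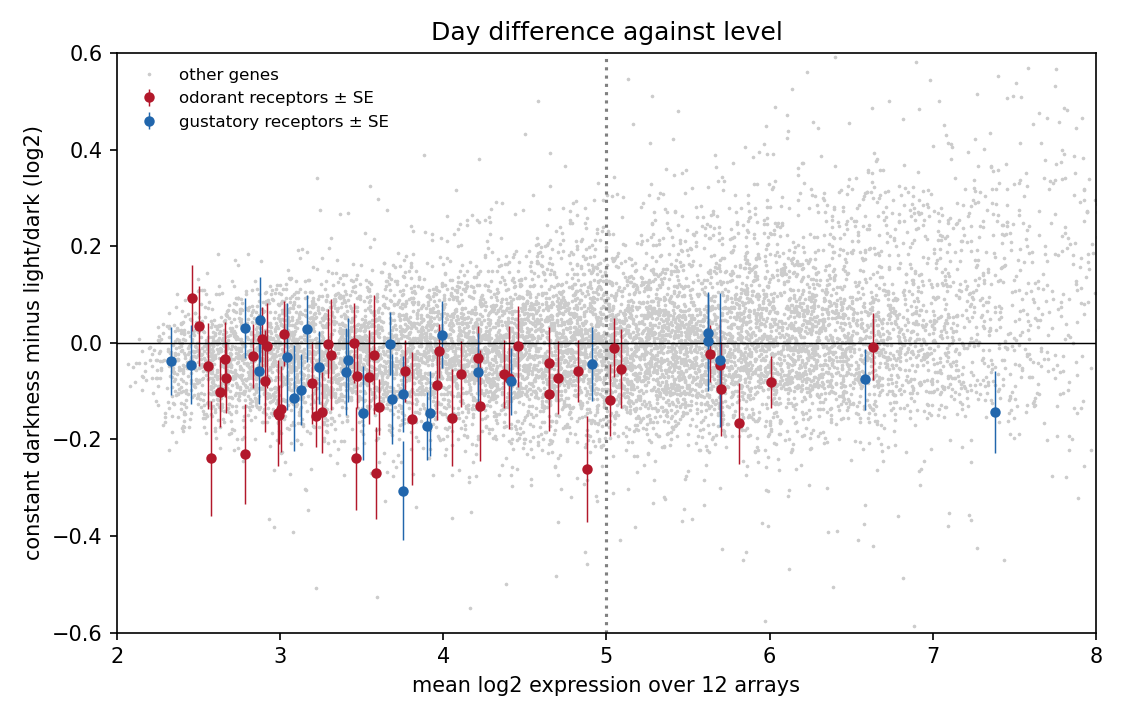
Difference between the days (vertical axis, constant darkness minus light/dark, log2) against mean log2 expression (horizontal axis) for 53 odorant receptor genes (red) and 28 gustatory receptor genes (blue), with standard errors from limma, over other genes (grey; 436 of 10763 lie outside the frame); the dotted line marks 5. Of the 81 receptors 71 lie below 0 on the deposited scale, against 34 under centring on non-fly control probe sets. That centring moved the median of all genes up to 0.065, and 25.9% of other genes under 5 were then below 0.

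The receptors were not alone in lying lower in constant darkness on the deposited scale. All 23 non-fly control probe sets were lower in constant darkness, by -0.01 to -0.22 with a median of -0.07. When each array was shifted so that their median was equal on all arrays, an alternative chosen after seeing the data, 28 of 67 receptors under 5 and 6 of 14 at 5 or more were lower in constant darkness, with medians of 0.01 and 0.02. That centring moved the median of all genes to 0.07, and 25.9% of other genes under 5 were then lower. Centring instead on the other genes under 5 left 53 of 67 and 9 of 14 receptors lower (medians -0.04 and -0.03), against 49.1% of the other genes under 5. The share of other genes at 5 or more was not counted under either centring. At an unadjusted p under 0.05, limma gave 2 lower receptors with the non-fly centring (0.341% of all genes) and 5 with the other (1.67%), and 0 passed after adjustment in both. With the non-fly centring the difference was -0.23 for Gr98a, -0.20 for Or69a, -0.19 for Or85d, -0.10 for Gr68a and -0.08 for both Or42a and Or13a. With 16 added on the linear scale before logs were taken again, which compresses weak signals, it was -0.14 for Gr98a, -0.12 for Or69a, -0.17 for Or85d, -0.08 for Gr68a, -0.05 for Or42a and -0.06 for Or13a. On that scale Or88a was at -0.10, Or1a at -0.07 and Or45b at -0.06.

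The difference between the days was uneven over time points. From CT4 to CT24, the receptors under 5 had median deviations from their own means of 0.09, 0.00, -0.10, -0.03, -0.06 and -0.11, and from ZT4 to ZT24 of 0.02, -0.08, 0.12, 0.12, -0.03 and 0.10. They were thus high in CT4 and, on the light/dark day, in ZT12, ZT16 and ZT24. The non-fly control probe sets gave 0.09, -0.07, -0.08, -0.04, -0.03 and -0.09 from CT4 to CT24 and -0.01, -0.04, 0.08, 0.10, -0.03 and 0.13 from ZT4 to ZT24. Other genes under 5 stayed between -0.05 and 0.05. Receptors at 5 or more were high in ZT12 (0.12), CT4 (0.12) and ZT16 (0.10) and low in CT24 (-0.11) and CT12 (-0.10).

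Compared hour by hour, 65 of 67 receptors under 5 were lower at CT12 than at ZT12 (97%; 66.6% of other genes under 5 and 23 of 23 non-fly control probe sets), by a median of -0.24. At hour 24 it was 58 of 67 (86.6%; median -0.21), against 61.9% of other genes under 5 and 21 of 23 non-fly control probe sets. At hour 16 it was 49 of 67 (73.1%; median -0.15), against 64.5% and 20 of 23. At hour 4, 25 of 67 were lower at CT4 than at ZT4 (37.3%; median 0.08), a share near the 39.4% of other genes under 5, and 3 of 23 non-fly control probe sets were. At hour 8, 18 of 67 were lower at CT8 than at ZT8 (26.9%; median 0.08), against 40.6% of other genes under 5 and 9 of 23 non-fly control probe sets. For the receptors at 5 or more, 14 of 14 were lower at CT12 than at ZT12 (median -0.27), against 51.9% of other genes at 5 or more. At hour 4 it was 1 of 14 (median 0.15), against 51.8%, and at hour 8 it was 8 of 14 (median -0.07), against 44.6%. At hours 16, 20 and 24 it was 10, 8 and 12 of 14, against 50%, 57.5% and 43.5%. Each hour sets 1 array against 1 array that all the genes share, so these counts are descriptions.

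**Figure D4:**
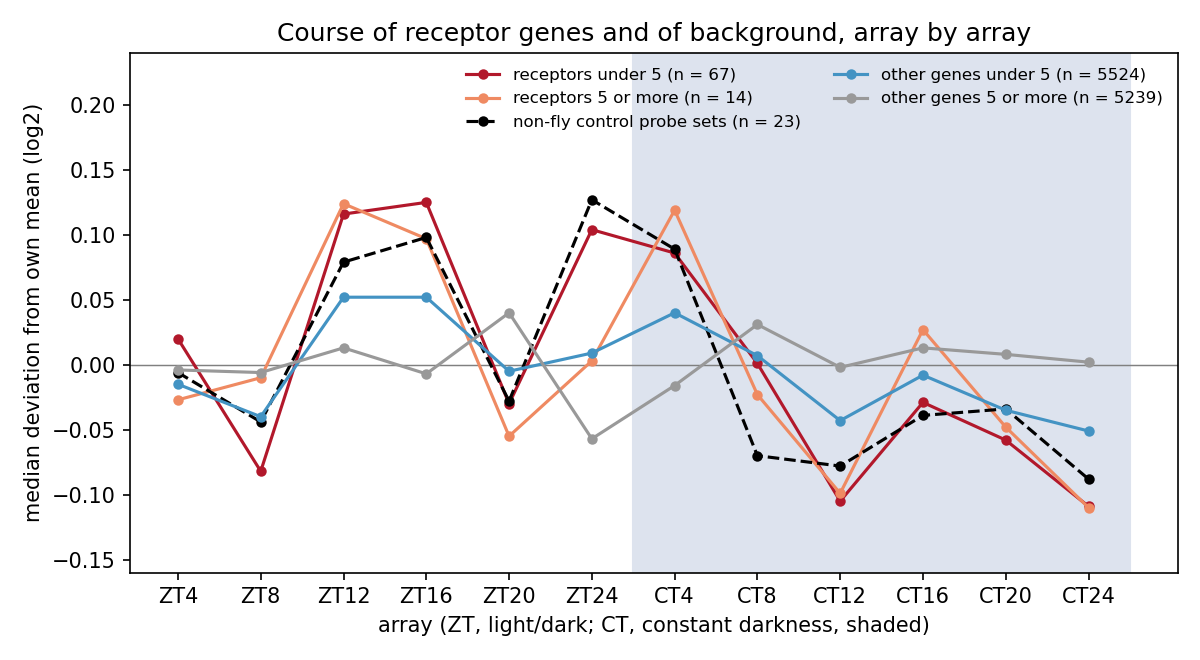
Median deviation of each group's members from their own 12-array mean (vertical axis, log2) on each array in time order (horizontal axis; constant darkness shaded), for receptors under 5 (67 genes), receptors at 5 or more (14), non-fly control probe sets (23, dashed), other genes under 5 (5524) and other genes at 5 or more (5239). Receptors under 5 and the non-fly control probe sets were both highest in ZT12, ZT16, ZT24 and CT4, at 0.08 or more.

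The arrays ZT12, ZT16, ZT24 and CT4 were also those with the largest 3' minus 5' signal of the fly control genes actin, GAPDH and eIF-4a, a sign of RNA quality: it was 2.13 to 3.32 in these 4 arrays and 1.49 to 2.08 in the other 8. Their values over all probe sets were less spread, with an SD of 1.56 to 1.59 against 1.64 to 1.69. Photoreceptor markers had median deviations of -0.73 to -0.04 in the 4 arrays and 0.01 to 0.33 in the other 8, and muscle markers -0.42 to 0.16 and 0.05 to 0.42. The summed linear level of the 9 muscle markers measured of 12 ranged from 4199 to 7763 in constant darkness and from 4096 to 7698 in light/dark, that of the 9 photoreceptor markers measured of 16 from 4433 to 7453 and from 3215 to 7424, and none was at 0. The part of these in the receptors' shift was not tested. Of the 67 receptors under 5, 55 had their highest value in 1 of these 4 arrays, 3 of which belong to the light/dark day, and so had 11 of the 14 at 5 or more. No such count is given here for all genes, so it is not read as particular to the receptors. Other genes under 5 had median deviations of 0.009 to 0.052 in the 4 arrays and -0.051 to 0.007 in the other 8. Non-fly control probe sets had 0.079 to 0.127 and -0.088 to -0.006.

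Within the 8 other arrays, 45 of 67 receptors under 5 were lower in constant darkness (median -0.03), against 53.1% of other genes under 5. At 5 or more it was 9 of 14 (median -0.01), with no share counted for other genes at that level. At an unadjusted p under 0.05, 4 receptors were then lower and 0 higher in limma, against 1.01% and 1.4% of all genes. Within the 4 arrays, CT4 minus the mean of ZT12, ZT16 and ZT24 had a median of -0.03 over the receptors under 5, with 42 of 67 lower, and 0.01 over those at 5 or more, with 6 of 14 lower; with 1 array of constant darkness this has no test.

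Single receptors differed in how closely they followed this course. Over the 12 arrays, the Pearson correlation with the median course of other genes under 5 was above 0.5 for 45 of 67 receptors under 5 and for 9 of 14 at 5 or more, with medians of 0.61 and 0.59. The same median was 0.57 for the non-fly control probe sets, 0.35 for the other genes under 5 themselves and 0.01 for other genes at 5 or more. The points share the arrays and their normalization, so these correlations are descriptions.

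No receptor had a daily rhythm that passed, and amplitudes were small. With limma, 0 of 81 genes passed for a common rhythm of 24 hours (0.00922% of all genes did), and 0 had an unadjusted p under 0.05, against 1.6% of all genes. Fitted amplitudes, from mean to peak, lay between 0.01 and 0.15 with a median of 0.05. Or33b, an antennal receptor, had the smallest p, with an amplitude of 0.15 ± 0.06 (SE, n = 12 arrays; unadjusted p = 0.0663, limma adjusted p = 1) and a peak at 13.6 hours. It was highest in ZT12 (2.95) and lowest in ZT24 (2.34). Gr33a, a gene shared by bitter neurons, gave 0.11 ± 0.05 with a peak at 3.5 hours, Gr98d 0.10 ± 0.05 at 22.9 hours, Gr28a 0.08 ± 0.05 at 5.9 hours, Gr2a 0.07 ± 0.05 at 14.6 hours and Or74a 0.07 ± 0.05 at 14.9 hours. Among the 14 genes above background the amplitude ran from 0.025 to 0.110, the largest being that of Gr21a. Fitted by day, the amplitude of Gr21a was 0.27 in constant darkness, where CT8 was its highest array, and 0.06 in light/dark.

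The shape of the daily curve was not shown to differ between the days for any receptor. With limma 0 of 81 passed (0.00922% of all genes) and 1 had an unadjusted p under 0.05 (2.56% of all genes). That gene was Or85f, of the antenna, whose fitted peak lay at 6.2 hours in constant darkness and at 18.1 hours in light/dark, with amplitudes of 0.11 and 0.18 (size of the difference 0.29 ± 0.09, SE; adjusted p = 0.9861). The next were Or88a (0.32 ± 0.13), Or56a (0.24 ± 0.10), Or59a (0.23 ± 0.10), Or46a (0.24 ± 0.10) and Or47a (0.27 ± 0.12), an antennal ester receptor. In light/dark the fitted peak of Or46a was at 14.4 hours and that of Or88a at 19.0 hours, and ZT16 was the highest array of both genes.

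Other chemosensory genes were measured from lists of names. Of 43 ionotropic receptors, another family of odour and taste receptors, 32 were lower in constant darkness (median -0.06; 17 lower, 0.02, with the non-fly centring), 0 passed in limma and 0 had an unadjusted p under 0.05. Their shared co-receptors gave 4.404 ± 0.05 in constant darkness and 4.53 ± 0.14 in light/dark for Ir25a, 4.34 ± 0.16 and 4.42 ± 0.14 for Ir76b, and 4.97 ± 0.19 and 4.96 ± 0.16 for Ir8a. Snmp1, the pheromone neuron membrane protein, measured 4.29 ± 0.09 in constant darkness and 4.33 ± 0.10 in light/dark. Of 22 pickpocket channels 15 were lower (median -0.04; 7 lower, 0.04, with the non-fly centring), and of 6 thermal and antennal TRP channels 3 (median -0.01; 0.07, 0.02 and 0.00 with the non-fly centring, the centring on other genes under 5 and a further quantile normalization), with 0 passing in limma and 0 at an unadjusted p under 0.05 in both lists.

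Of 20 perireceptor and odour signalling genes, 13 were lower and 7 higher (median -0.04; 4 lower with the non-fly centring, 0.04), with 0 passing in limma and 1 in each direction at an unadjusted p under 0.05. Obp19d, an odorant-binding protein, measured 9.49 ± 0.27 in the dark day and 8.99 ± 0.40 in the light/dark day. It differed by 0.50 ± 0.19 (SE, limma unadjusted p = 0.0254, adjusted p = 0.9298). The difference was 0.33 after a further quantile normalization, 0.57 with the non-fly centring and 0.52 with the centring on other genes under 5. Its lowest arrays were ZT16 (8.27), ZT12 and CT4 (8.95 each) and ZT24 (9.02), the 4 arrays of largest 3' minus 5' signal. Of these, 3 belong to the light/dark day, and the part of this in the difference was not tested. Of 9 transcription factors of olfactory and taste neurons 7 were lower (median -0.11; 7 of 9 with the non-fly centring, -0.04), with 0 passing in limma and 0 at an unadjusted p under 0.05.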

How the data were processed

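The deposited file gives 1 log2 value per probe set for each of 12 arrays. The authors used RMA, according to the submitters' processing notes; no version is stated there. RMA subtracts background, equalises array distributions and summarises probes. The log base was inferred from the values (1.72 to 13.52), and changes of weak genes are compressed. Precision depends on the number of arrays; the day difference had a median standard error of 0.09.

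Of 14010 probe sets, 44 were controls and 13966 were tested; 12443 carried 1 gene, 327 several and 1196 none in the platform annotation. Symbols were updated through a RefSeq table (Release 6 plus ISO1 MT), which also gave chromosomes, neighbours and overlaps.

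Models were fitted with limma 3.58.1 in R 4.3.3 over all tested probe sets with Benjamini-Hochberg adjustment at 0.05: the day difference beside a 24-hour cosine and sine, the rhythm itself, and its difference between days. Steps were tested on simulated data. The members, lists and tests were chosen with earlier results of these data known; functional lists rest on general knowledge and are incomplete. Genes named were all receptors at 5 or more, Orco, the 3 on each side of the limit, the 6 of smallest p per test (per direction for the day difference), the 2 of smallest p per functional list, genes of other lists at 5 or more with an unadjusted p under 0.05, set co-receptors, and the 5 genes most like Orco. Named outside that rule, after its values were seen, was Or22a. Alternatives covered normalization, scale, filter, variance model, pairing by hour, arrays left out, probe set choice, limit and array centring.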

Additional observations from a re-analysis of the deposited data

Results flagged for a closer look

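In 5 of 92 checks, each of 1 gene on the 6 arrays of 1 day, 1 array stood apart from the other 5 by more than Dixon's critical value allows; chance gives such a gap in about 1 of 20 checks. Or46a, the palp receptor, was 5.89 in CT4, with the nearest constant darkness array at 5.72. Or59a, a larval receptor, was 5.44 in ZT12, with the nearest light/dark array at 5.13. Gr57a was 5.05 in CT8, against 4.89 in the nearest constant darkness array. Gr93b, a bitter receptor, was low in ZT8 at 3.01, against 3.15 in the nearest light/dark array. The odorant-binding protein Obp19d was low in CT4 at 8.95, with the other constant darkness arrays at 9.46 or more. CT4 and ZT12 belong to the 4 arrays of largest 3' minus 5' signal; its part in these values was not tested.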

How the results depend on the processing

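No receptor passed limma's adjusted threshold for the difference between the days, the rhythm or the rhythm difference under any alternative run. The count of receptors lower in constant darkness at an unadjusted p under 0.05, 9 as reported (2.12% of all genes), was 5 after a further quantile normalization (2.16%), 5 with arrays centred on other genes under 5 (1.67%), 2 with arrays centred on non-fly control probe sets (0.341%), 4 without ZT12, ZT16, ZT24 and CT4 (1.01%), and 0 where only probe sets at 5 or more were kept (1.56%), which leaves out all receptors under 5. Leaving out 1 array at a time gave 2 (without ZT24; 1.32% of all genes) to 12 (without CT4; 6.84%). With the clock hour as a replicate block it was 4 (1.74%), but same-hour arrays did not deviate together (correlations -0.64 to 0.39), so hours are not taken to pair arrays. The counts by clock hour given above set 1 array against 1 array and are descriptions. With the non-fly centring, 28 of 67 receptors under 5 were lower, against 25.9% of other genes under 5. At 5 or more, 6 of 14 receptors were lower, and the share of other genes at that level was not counted. At a limit of 6 in place of 5, 4 of 4 receptors above it were lower: Gr8a by -0.14, Or7a and Gr2a by -0.08 each and Or22c by -0.01. The standard error for Or22c was 0.07. The share of other genes at 6 or more was not counted, so the 4 of 4 is not read as particular to the receptors. Under leave-one-out, 51 to 62 of 67 receptors under 5 were lower (medians -0.098 to -0.044), and 8 to 14 of 14 at 5 or more (-0.096 to -0.020). Of 41 named receptors, 15 changed sign with the non-fly centring and 10 without the 4 arrays. Signals near background limit all statements on the 67 weak receptors.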
